A study of Salmo salar with 31 samples.

Results

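In the skin of Atlantic salmon, 27 of 14841 array features had a median at or below that of smolts, or little above it, after 1 month in seawater, and were raised after 4 months in both rearing systems, a semi-closed containment system (S-CCS) and an open net-pen. They were chosen from the deposited intensities. For each feature the group median M of the log2 intensity was taken over the fish, with blanks and values under 16 set to 16, so that the lowest possible log2 intensity is 4. The difference d is M of a post-smolt group minus M of the smolts. A feature was taken when its highest M over the 5 groups was at least 6, d was at least 0.8 in both groups sampled at 4 months, and d was under 0.4 in both groups sampled at 1 month. All values of d are therefore a description of how the features were selected, and no test was made of them.

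The 31 single-colour arrays carried total RNA from skin of one fish each. They comprised 7 smolts in freshwater, 6 post-smolts from the S-CCS and 6 from the net-pen after 1 month in seawater (1M), and 6 from each system after 4 months (4M). The fish came from a single batch of smolts that was divided at random between Preline, a raceway S-CCS supplied with deep water, and an open cage used as the control. There was 1 enclosure per system, at different sites, so that system, site and enclosure cannot be told apart. The paper also reports colder and more saline water in the S-CCS. It gives a lower mean weight of the fish sampled there after 4 months. Temperature, salinity and fish size therefore cannot be told apart from system either. Time in seawater cannot be told apart from season, age and growth of the fish. The p-values measure the spread between fish within an enclosure.

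Fish skin is a living mucosal barrier. Its epidermis holds keratocytes and mucous cells and is in direct contact with the water, and the scales and collagen of the dermis lie underneath. Smoltification prepares juvenile salmon for seawater while they are still in freshwater, and skin and its immune cells continue to change after transfer. In whole skin, more cells of a type and more RNA per cell cannot be told apart. The array identifies features by probe names. None of the 14841 names matched the 65341 genes of the RefSeq table of Atlantic salmon, so the features are given by probe name and no function is assigned. For the same reason markers of skin layers, mucous cells, muscle, blood and immune cells could not be read, and the labelled tissue could not be checked against them.

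The scanner software called 84.3% to 97.1% of an array's features well above background, with 88.5% to 93.0% for S-CCS 4M fish, 89.7% to 95.8% for net-pen 4M fish and 86.6% to 92.4% for smolts. Of the 27 features, 25 were well above background on all 31 arrays, and the exceptions were Ssa#GRASP209734281 and Ssa#S18846215. A fish could carry this flag and still be at the floor. Of the 27, 8 had at least 1 fish at the floor, and 7 had a smolt median of 5 or less in log2 intensity. The deposited table had 18 to 1425 blanks per array, with the most in S-CCS 4M fish 11 (1080) and 12 (1425) and smolt fish 7 (1052), and the ratio of signal to background ranged from 3.90 to 8.88. No 4M fish was at the floor in any of the 27. The arrays lay on 10 slides, and no slide held both 4M groups. A spatial correction by the scanner software (multiplicative detrending) was inferred for 1 of 6 S-CCS 4M arrays and for 4 of 6 net-pen 4M arrays. It was taken as applied where the ratio of processed to background-subtracted signal varied between the features of an array.

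Over the 27 features, d at 4M had a median of 1.01 for the S-CCS and 1.70 for the net-pen. The lowest d was 0.81 in S-CCS and 0.90 in net-pen. One feature stood far above the rest with 6.65 in S-CCS and 6.91 in net-pen, and without it the highest d was 2.27 in S-CCS and 4.12 in net-pen. At 1M, d ranged from -1.34 to 0.34 in S-CCS and from -0.87 to 0.38 in net-pen. In each system 12 features lay below the smolts, against 37.4% (S-CCS) and 49.1% (net-pen) of the features tested. In the log2 expression ratio used for the tests (log2-ER, defined below), 16 were below the smolts in S-CCS (50.5% of all features) and 8 in net-pen (48.4%). The median differences were -0.06 in S-CCS and 0.29 in net-pen, against -0.003 and 0.015 over all features. The features were spread over the range of signal, with smolt medians between 4 and 10.41 in log2 intensity and a median of 6.49, against 6.49 over all features of the array. The features nearest to the threshold on the inside were Ssa#S50369596 with a smaller 4M d of 0.81, Ssa#EG798776 with 0.81 and Ssa#CL34Contig1 with 0.81. Those just outside were Ssa#GRASP221221577 with 0.80 and Ssa#GRASP209154515 with 0.80, both short of the threshold before rounding, and Ssa#S31976494 with 0.78. Without the limit at 1M, 293 features passed, and 266 of these had a d of 0.4 or more at 1M in at least 1 system.

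**Figure D1:**
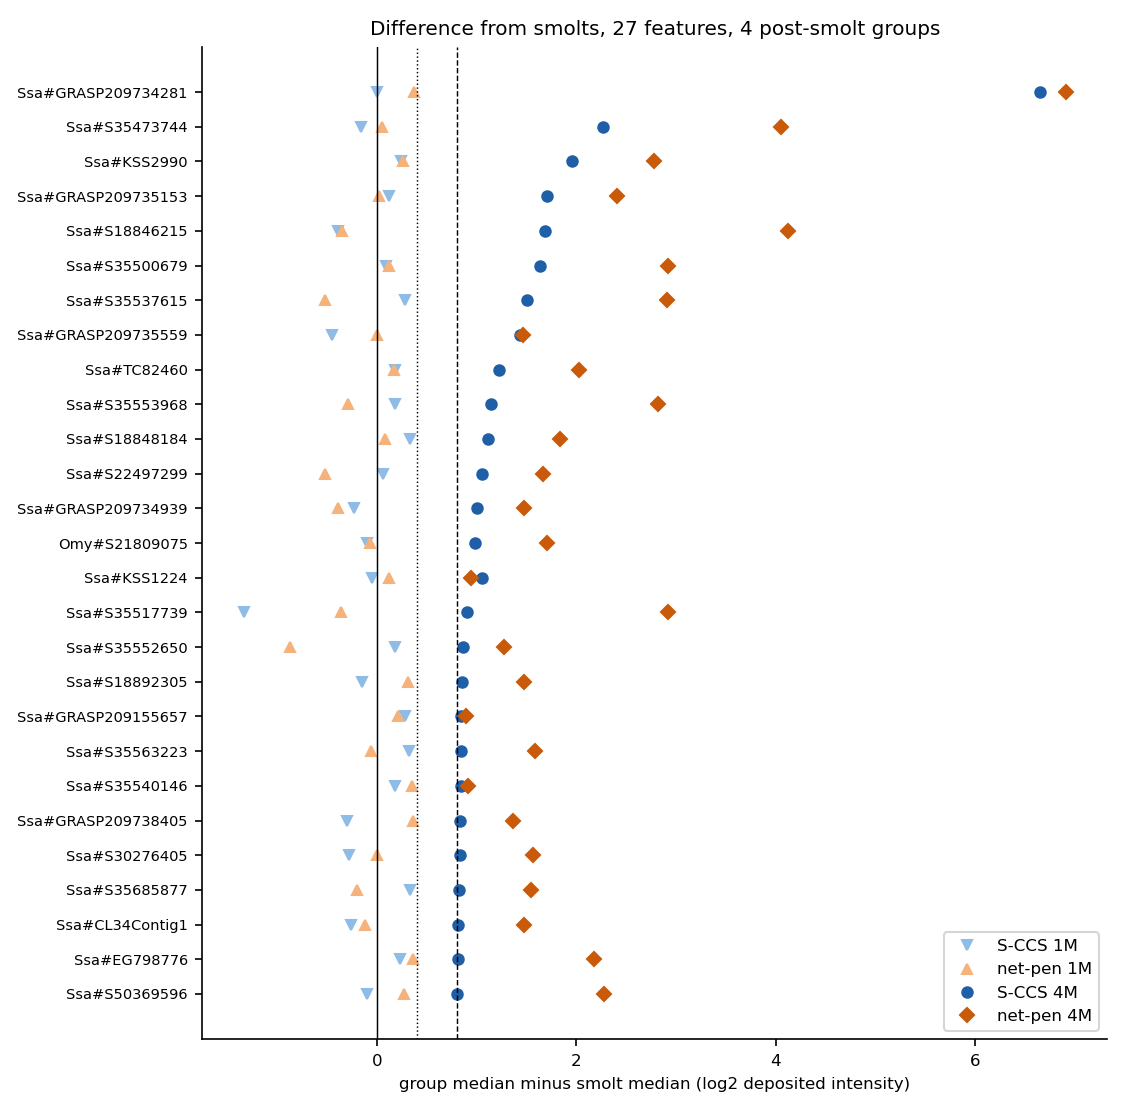
Group median minus smolt median in log2 deposited intensity (horizontal axis) for the 27 features (rows), with triangles for the 1M groups, circles for S-CCS 4M and diamonds for net-pen 4M. The dotted line marks 0.4 and the dashed line 0.8, the limits of the selection. At 4M the diamond lies to the right of the circle for 26 of 27 features, and Ssa#GRASP209734281 stands alone at 6.65 (S-CCS) and 6.91 (net-pen).

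Ssa#GRASP209734281 had the largest change. Its log2 intensity was at the floor of 4 in 6 of 7 smolts and reached 7.03 in smolt fish 1. After 1 month the lowest, median and highest values were 4, 4 and 6.29 in S-CCS and 4, 4.38 and 8.54 in net-pen. After 4 months they were 7.88, 10.65 and 11.67 in S-CCS and 7.36, 10.91 and 12.21 in net-pen. All 12 fish at 4M were thus above all 7 smolts, while net-pen 1M fish 6 with 8.54 was above the lowest fish of both 4M groups. The probe was well above background in 6 of 7 smolts, 4 of 6 S-CCS 1M and 5 of 6 net-pen 1M fish, and in all fish at 4M. Because the smolt median is at the floor, the size of d depends on where the floor is set. It was 4.65 in S-CCS and 4.91 in net-pen with a floor of 64, and 7.06 in S-CCS and 7.33 in net-pen with a floor of 4. The d at 1M in net-pen depended on the processing as well. It was 0.58 with a floor of 4, 0.91 with means in place of medians, and 0.67 to 0.75 on mean-scaled, 75th percentile scaled or quantile-normalized processed signals, all above the limit of 0.4, so that the feature was not selected under these 6 settings.

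Ssa#S35473744 followed, with a clean step between 1M and 4M. The lowest, median and highest log2 intensities were 4.39, 5.25 and 6.17 in smolts. They were 4.81, 5.09 and 5.78 in S-CCS 1M and 4.81, 5.30 and 7.19 in net-pen 1M. They then stood at 6.81, 7.52 and 8.93 in S-CCS 4M and at 8.58, 9.31 and 10.18 in net-pen 4M. All fish at 4M were above all smolts, and net-pen 1M fish 12 with 7.19 was the only 1M fish within the range of a 4M group.

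Ssa#KSS2990 varied more between smolts. Its log2 intensity ranged from 4 to 7.53 in smolts around a median of 5.83, and the medians at 1M were 6.07 in S-CCS and 6.10 in net-pen. At 4M the range was 6.34 to 8.52 in S-CCS with a median of 7.79, and 7.24 to 9.17 in net-pen with a median of 8.61. Both 4M groups overlapped the smolts.

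Ssa#S18846215 was low in most fish before 4M, with marked exceptions. Of the smolts, 6 lay between 4.09 and 5 in log2 intensity and fish 1 was at 10.57. In S-CCS 1M, 5 of 6 fish were at 4, and in net-pen 1M the median was 4.04 with fish 6 at 7.30. At 4M the lowest, median and highest values were 5.36, 6.08 and 7.08 in S-CCS and 7.04, 8.51 and 11.64 in net-pen. All S-CCS 4M fish were below smolt fish 1, and d would be 0.89 in S-CCS with group means in place of medians. Smolt fish 1 was also the smolt with the highest Ssa#GRASP209734281.

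Further features had a gap between smolts and 4M fish. Ssa#S35553968 had log2 intensities of 4 to 4.52 in smolts, with 3 of 7 at the floor, and its 1M medians were 4.64 for the S-CCS and 4.17 for the net-pen. It ranged from 5.17 to 6.55 in S-CCS 4M and from 6.15 to 8.88 in net-pen 4M, so that all 4M fish were above all smolts. Ssa#S18848184 ranged from 6.17 to 6.66 in S-CCS 4M, from 6.11 to 7.74 in net-pen 4M and from 4.91 to 5.86 in smolts. It was the one feature for which all 12 fish at 4M were above all 19 smolts and 1M fish, the highest of which was a net-pen 1M fish at 6.09, as was the case for 0.0353% of the features tested.

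Ssa#GRASP209735559 was among the features with a bright signal at 4M. Its median log2 intensity was 10.23 in smolts. At 1M it was 9.78 in the S-CCS and 10.23 in the net-pen, and at 4M it was 11.66 in the S-CCS and 11.70 in the net-pen. The S-CCS 4M fish ranged from 9.56 to 12.40 and overlapped the smolts, which ranged from 9.31 to 10.54, and the net-pen 4M fish at 10.76 to 12.43 did not. Ssa#GRASP209734939 had a median of 10.41 in smolts. Its medians were 10.18 (S-CCS) and 10.02 (net-pen) at 1M, and 11.42 (S-CCS) and 11.88 (net-pen) at 4M.

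Ssa#S35517739 had deposited medians below that of the smolts at 1M in both systems. In log2-ER, S-CCS 1M differed from the smolts by -1.11 (SE 0.54) and net-pen 1M by 0.05 (SE 0.54). The median log2 intensity was 9.64 in smolts. It was 8.30 (S-CCS) and 9.28 (net-pen) at 1M, and 10.55 (S-CCS) and 12.56 (net-pen) at 4M. The S-CCS 4M fish ranged from 8.59 to 11.90 and overlapped the smolts, which ranged from 8.17 to 11.05. The net-pen 4M fish ranged from 10.94 to 13.63, with a single fish within the smolt range. By contrast, Ssa#GRASP209155657 differed little between fish. It ranged from 10.38 to 10.81 in S-CCS 4M, from 10.44 to 11.23 in net-pen 4M and from 9.77 to 10.21 in smolts. Its d of 0.85 (S-CCS) and 0.90 (net-pen) was among the smallest of the 27, yet no 4M fish overlapped a smolt. The 1M fish, at 9.56 to 10.42 in S-CCS and 9.69 to 10.675 in net-pen, did overlap the 4M fish. In log2-ER, net-pen 1M was already above the smolts by 0.42 (SE 0.15), and S-CCS 1M by 0.13 (SE 0.15).

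**Figure D2:**
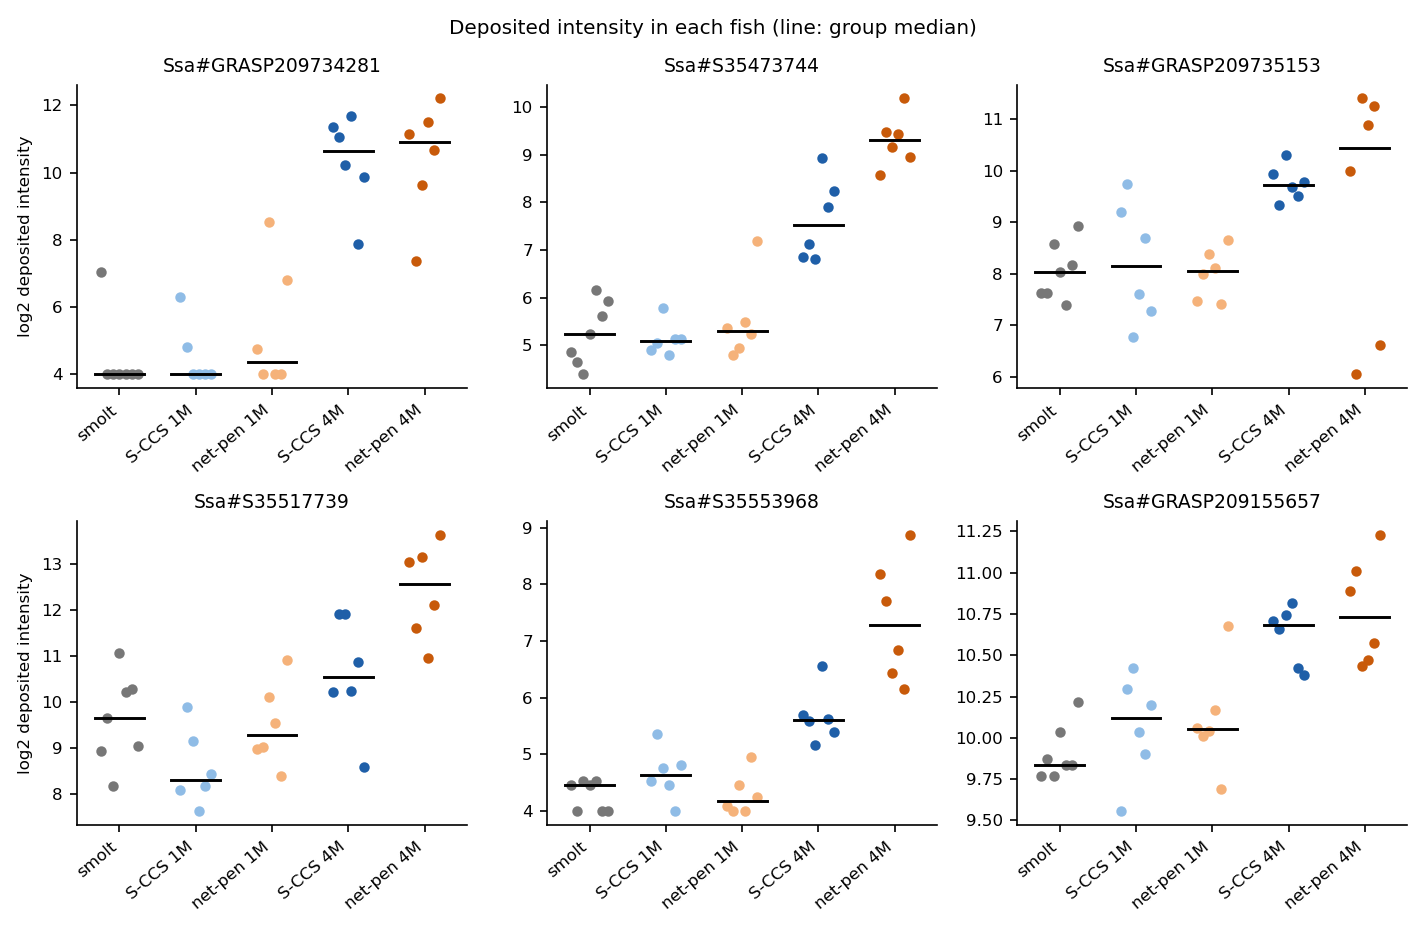
Log2 deposited intensity (vertical axis) of 6 features in each of the 31 fish by group, with one point per fish and a line at the group median. In Ssa#S35473744 all S-CCS 4M and net-pen 4M fish lie above the smolts, while in Ssa#GRASP209735153 net-pen 4M fish 2 and 12 lie below every smolt.

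Other features had raised medians at 4M with fish that overlapped the smolts. Ssa#S35500679 had lowest, median and highest log2 intensities of 5.73, 7.57 and 9.76 for S-CCS fish at 4M, 6.77, 8.85 and 9.57 for net-pen fish at 4M and 5.04, 5.93 and 8.10 for smolts. Both 4M groups overlapped the smolts, the net-pen 4M fish only through smolt fish 1 at 8.10, since the next smolt was at 6.21. Ssa#S35537615 was at 4.32, 6.15 and 8.40 in S-CCS 4M, at 6.46, 7.55 and 8.68 in net-pen 4M and at 4, 4.64 and 5.61 in smolts. Ssa#TC82460 was at 6.38, 7.65 and 8.88 in S-CCS 4M, at 7.77, 8.46 and 9.42 in net-pen 4M and at 5.43, 6.43 and 7.25 in smolts. In the last 2 features, as in Ssa#S22497299, S-CCS 4M fish overlapped the smolts and net-pen 4M fish did not. Ssa#S22497299 ranged from 4.39 to 6.89 in S-CCS 4M, from 5.75 to 7.28 in net-pen 4M and from 4 to 5.09 in smolts.

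Near the threshold, Ssa#EG798776 had a median of 7.74 in the S-CCS at 4M, 9.11 in the net-pen at 4M and 6.93 in smolts. Ssa#CL34Contig1 had medians of 9.72 in the S-CCS at 4M, 10.39 in the net-pen at 4M and 8.91 in smolts. The 8 features outside the rule for naming had d of 0.82 to 1.05 in S-CCS and 0.92 to 1.70 in net-pen at 4M. One of these, Ssa#S35552650, named after its values were seen, ranged from 8.26 to 10.89 in S-CCS 4M, from 8.69 to 10.83 in net-pen 4M and from 5.21 to 10.75 in smolts. In each 4M group 1 fish lay above the range of the smolts and the other 5 within it.

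Counted over the 27, all fish were above all smolts for 7 features in S-CCS 4M and for 17 in net-pen 4M, and for 6 in both. The same held for 2.41% of the 14172 features tested in S-CCS 4M, 2.85% in net-pen 4M and 0.811% in both. The selection used these groups, so the counts only show how far the medians are carried by all fish. No feature of the 27 had all 1M fish above all smolts in either system, as 1.02% (S-CCS) and 1.11% (net-pen) of all features had. Within slides that held 2 groups, the mean of the S-CCS 4M fish was above that of the smolts for 25 of 27 features on each of 2 slides, as for 35.6% and 34.9% of all features. The net-pen 4M fish were above the smolts for 26 of 27 on another slide (42.0% of all features), where Ssa#GRASP209735153 was the exception, and above the S-CCS 1M fish for 27 of 27 on each of 2 further slides (38.2% and 45.8%). On the slide that held S-CCS 1M fish and 1 smolt, 12 of 27 were higher in S-CCS 1M, against 49.97% of all features. These are fish on which the selection was made.

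The selection used the median of each 4M group against the smolts, but not the difference between the systems. That difference is nevertheless formed from the same 4M medians. The counts over the 27 are therefore a description, and nothing is read from their excess over all features. The estimates for single features below also rest on fish whose medians the selection used, and their p-values do not allow for the selection. Figures given for the difference between the systems are in the log2 expression ratio (log2-ER), S-CCS minus net-pen. The log2-ER is the log2 ratio of a feature to its mean over all arrays after lowess correction. The difference was below 0 for 23 of 27 features and their median was -0.75, against 50.5% of features and a median of 0.00 over all 14172. On the deposited medians, 26 of 27 were lower in S-CCS, against 56.2% of all features, and the exception was Ssa#KSS1224 with 4M medians of 6.18 (S-CCS) and 6.07 (net-pen). Of the 27, 4 were lower in S-CCS at an adjusted p under 0.05 (limma, Benjamini-Hochberg over all features) and 0 were higher, against 4.44% lower and 3.51% higher over all features. By the criteria of the study's methods, unadjusted p under 0.05 and a log2 difference past 0.8, 9 were lower and 0 were higher, against 2.97% and 2.58%.

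Ssa#S50369596 differed between the systems with the smallest p. Its log2 intensity ranged from 8.12 to 9.79 in S-CCS 4M with a median of 9.11, and from 9.71 to 11.21 in net-pen 4M with a median of 10.58. Only S-CCS fish 2 reached into the range of the net-pen fish. The mean log2-ER was -0.11 ± 0.61 in S-CCS and 1.34 ± 0.60 in net-pen (SD, n = 6 each), a difference of -1.44 (SE 0.29, limma adjusted p = 0.0046). This feature was nearest to the threshold among those selected, with d of 0.81 in S-CCS, while d in net-pen was 2.28. Its d at 1M in net-pen depended on the processing. It was 0.48, 0.42 and 0.41 on mean-scaled (with lowess), 75th percentile scaled and quantile-normalized processed signals. These values and that with means (0.53) were above the limit of 0.4. Without lowess and with normexp background correction it was 0.31 each, under the limit. In log2-ER, net-pen 1M was above the smolts by 0.64 (SE 0.28).

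For Ssa#S35473744, whose values by fish are given above, the mean log2-ER at 4M was 0.05 ± 0.92 for S-CCS fish and 1.68 ± 0.62 for net-pen fish (SD, n = 6 each). The difference was -1.63 (SE 0.44, limma adjusted p = 0.023), and it did not pass without S-CCS 4M fish 1, 2 or 6 or net-pen 4M fish 7 or 11, where the adjusted p reached 0.065. For Ssa#S35553968 the means were -0.26 ± 0.50 for S-CCS fish and 1.36 ± 1.12 for net-pen fish, and the difference was -1.62 (SE 0.38, limma adjusted p = 0.011). In both, as in 26 of the 27, the S-CCS 4M median lay between those of net-pen 4M and smolts. The selection placed it above the smolts. The fourth, Ssa#GRASP209738405, ranged from 7.78 to 9.44 in log2 intensity in S-CCS 4M and from 8.84 to 11.38 in net-pen 4M. Its difference of -1.06 (SE 0.33, limma adjusted p = 0.045) was the least certain, since leaving out net-pen 4M fish 12 gave -0.73 and an adjusted p of 0.11. It passed in 3 of the 12 fits that left out 1 fish of these groups, without S-CCS 4M fish 11 or net-pen 4M fish 1 or 2. Its d at 1M in net-pen was above 0.4 in the settings named for Ssa#S50369596 (0.50, 0.48, 0.49 and, with means, 0.50). It was 0.396 without lowess and 0.36 with normexp. In log2-ER, net-pen 1M was above the smolts by 0.63 (SE 0.32). The systems differed at 1M by -0.83 (SE 0.33, limma adjusted p = 0.12). The interaction term described below was -0.23 (SE 0.47, limma adjusted p = 0.76).

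The detrended arrays fell mostly in net-pen 4M. Without detrending the differences were -1.31 for Ssa#S50369596, -1.60 for Ssa#S35473744, -1.63 for Ssa#S35553968 and -0.87 for Ssa#GRASP209738405, and the last of these had an adjusted p of 0.06. Slide and system could be separated only in part at 4M. With slide as a fixed block over the 25 arrays outside net-pen 1M, a fit chosen after the data were seen, 0 of 27 passed in limma and 7 had an unadjusted p under 0.05. In this fit 17 of 14172 features passed, or 0.12%. The differences were then -1.83 for Ssa#S50369596, -0.96 for Ssa#S35473744, -1.96 for Ssa#S35553968 and -0.31 for Ssa#GRASP209738405. The 4M groups met in it only through smolts and S-CCS 1M fish on shared slides. S-CCS 4M fish 1 and 2 lay on a slide with no other group. The differences in this fit therefore rest on S-CCS 4M fish 6, 7, 11 and 12.

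**Figure D3:**
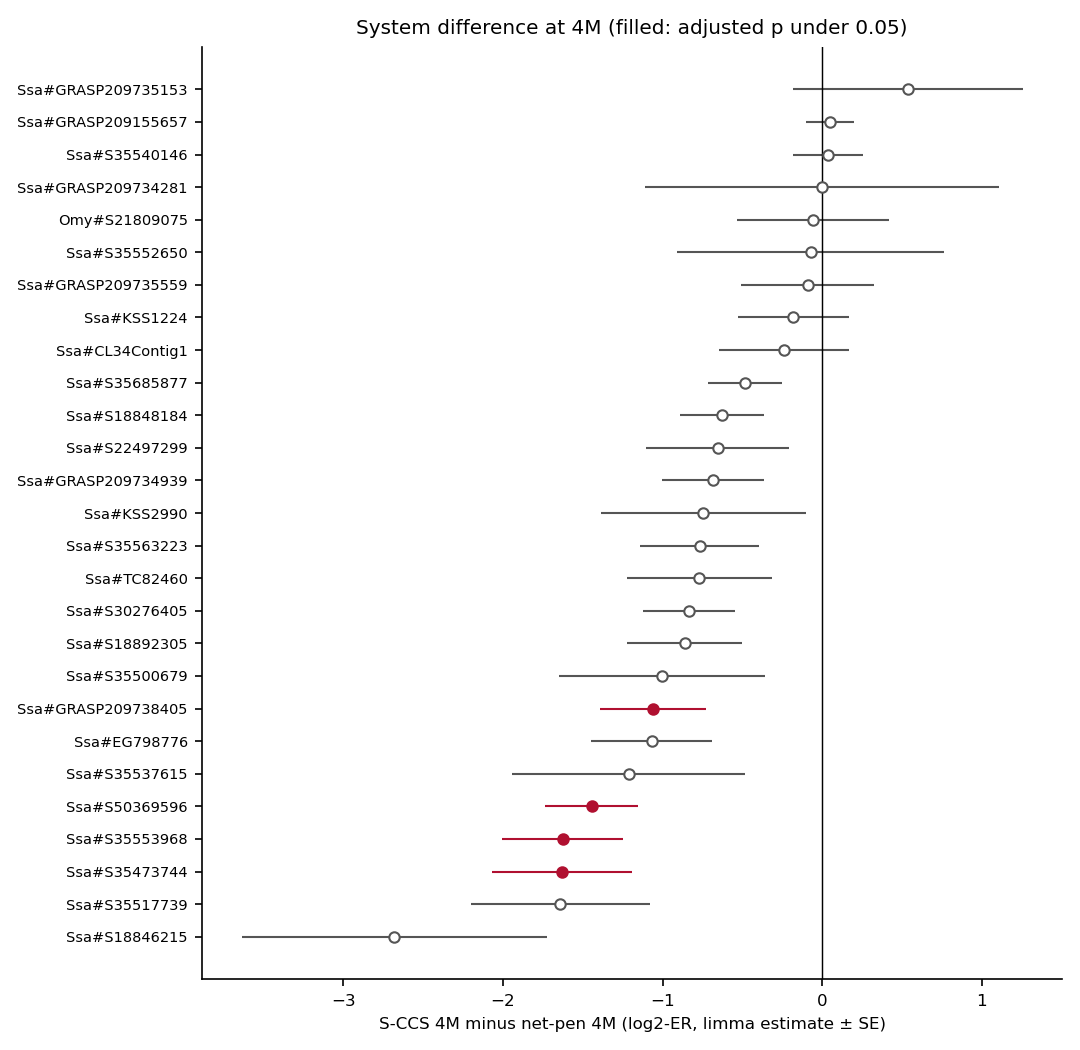
Difference in log2-ER at 4M, S-CCS minus net-pen (horizontal axis, limma estimate ± SE), for the 27 features, with filled points at an adjusted p under 0.05. The points lie left of 0 for 23 of 27 features, and the 4 filled points lie between -1.63 and -1.06.

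Other features did not pass the test. Ssa#S18846215 had the largest difference, -2.68 (SE 0.96, limma adjusted p = 0.079), with net-pen 4M fish 1 and 7 at 11.64 and 10.92 in log2 intensity and the other 4 between 7.04 and 9.51. Ssa#S35517739 differed by -1.64 (SE 0.56, limma adjusted p = 0.067) and Ssa#EG798776 by -1.07 (SE 0.38, limma adjusted p = 0.078). For Ssa#S35563223, named after its values were seen, all S-CCS 4M fish at 4.86 to 5.75 were below all net-pen 4M fish at 5.86 to 7.14, as for 5.11% of all features, and the difference was -0.77 (SE 0.37, limma adjusted p = 0.20). At the other end, Ssa#GRASP209734281 differed by 0.00 (SE 1.11), Ssa#GRASP209155657 by 0.05 (SE 0.15) and Ssa#S35540146 by 0.04 (SE 0.22).

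At 1M no feature of the 27 differed between the systems at an adjusted p under 0.05. In limma 0 of 27 passed and 4 had an unadjusted p under 0.05, against 6.5% and 24.1% of all features. The selection held both 1M medians under the same limit, so nothing is read from this count. All net-pen 1M arrays lay on 3 slides that held no other group, so that slide and system cannot be told apart at 1M or in the interaction. Slide also cannot be told apart from group where net-pen 1M is compared with smolts, as in the selection, or with net-pen 4M. With slide as a random block, 0 of 27 passed at 1M (8.06% of all features) and 1 in the interaction (18.7%). The smallest p at 1M was that of Ssa#S50369596, which had a difference of -0.76 (SE 0.29, limma adjusted p = 0.11), lower in S-CCS as at 4M. It ranged from 7.36 to 8.34 in log2 intensity in S-CCS 1M and from 8.32 to 9.31 in net-pen 1M. It passed without detrending (-0.85, limma adjusted p = 0.044) and without net-pen 1M fish 11 (-0.93, limma adjusted p = 0.043), and with array weights Ssa#GRASP209738405 passed (-0.86, limma adjusted p = 0.048).

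An interaction term tested if the systems differed in their change between 1M and 4M. One of 27 features passed, against 16.3% of all features, and as the selection used all 4 medians of the term, nothing is read from the count. For Ssa#S35553968 the change was smaller in S-CCS by 2.42 on the log2 scale (estimate -2.42, SE 0.54, limma adjusted p = 0.0042). At 1M its difference between systems was 0.80 (SE 0.38, limma adjusted p = 0.19), and at 4M it was -1.62. It passed in each of the 24 fits that left out 1 fish, with estimates from -2.67 to -2.08. Its 1M medians lay near the floor, at 4.64 (S-CCS) and 4.17 (net-pen) in log2 intensity. At 4M, d was 1.14 (S-CCS) and 2.82 (net-pen), and at 1M 0.18 and -0.29. With a floor of 64, d was 0 and 1.28 at 4M and 0 in both systems at 1M. With normexp it was 0.61 and 1.64 at 4M, and 0.14 and -0.03 at 1M. The size of the change thus depends on how background is handled. The d at 1M in S-CCS depended on the processing as well. It was 0.60 on mean-scaled processed signals with lowess, 0.56 without lowess and 0.50 with 75th percentile scaling. All of these were above the limit of 0.4, and it was 0.39 after quantile normalization. In log2-ER, S-CCS 1M was above the smolts by 0.53 (SE 0.37). Over the 27 the interaction was below 0 for 20 features with a median of -0.61, against 50.4% of all features. Nothing is read from this count either, for the same reason. The estimate for Ssa#S35553968 also rests on fish whose medians the selection used.

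The spread between fish within a group did not enter the rule. It is still not independent of the selection, since medians of features with a wide spread pass such limits more easily. The values below are therefore a description, and nothing is read from their excess over all features. The median SD of log2-ER over the 27 was 0.53 in smolts, against 0.33 over all features tested. At 1M it was 0.54 in the S-CCS and 0.78 in the net-pen, against 0.30 and 0.35 over all features. At 4M it was 0.65 in the S-CCS and 0.69 in the net-pen, against 0.28 and 0.33. The range within the 27 was broad. In S-CCS 4M it ran between 0.15 for Ssa#S35685877 and 1.64 for Ssa#S35500679, and in net-pen 4M between 0.34 for Ssa#S35540146 and 2.49 for Ssa#GRASP209735153.

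**Figure D4:**
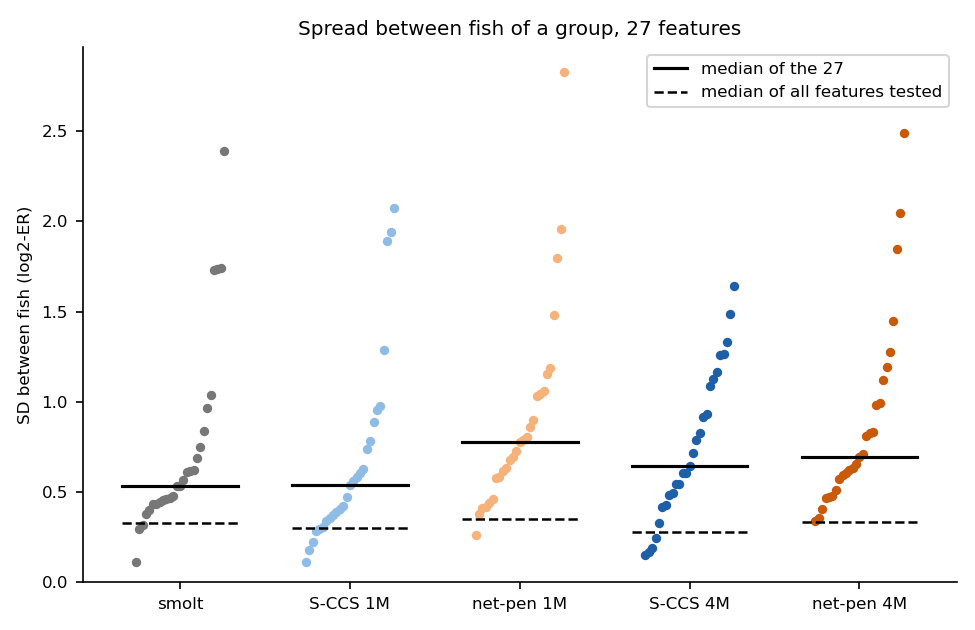
SD between fish of a group in log2-ER (vertical axis) for each of the 27 features, sorted within a group, with solid lines at the median of the 27 and dashed lines at the median of all features tested. The solid line is above the dashed line in all 5 groups, at 0.65 against 0.28 in S-CCS 4M.

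Some fish were the highest of their group in many of the 27 features, though the features did not all move together. Deviations from the group means correlated between features with -0.58 to 0.93, with a median of 0.13 over 351 pairs. Net-pen 4M fish 12 was the highest of its group in 14 of 27 features, as in 19.3% of all features, and the lowest in 0. S-CCS 1M fish 2 was the highest in 16 of 27, against 25.3% of all features, and net-pen 1M fish 12 in 15 of 27, against 25.8%. In S-CCS 4M, fish 7 was the highest in 10 of 27, against 15.4%, and in smolts fish 7 in 11 of 27, against 14.6%. Net-pen 4M fish 2 was the lowest of its group in 11 of 27, against 20.4%. All features of a fish come from one array and share its labelling and scan.

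A group of 6 features moved together from fish to fish. Ssa#S35500679, Ssa#S35537615, Ssa#TC82460, Ssa#S22497299, Ssa#GRASP209734939 and Ssa#S30276405 were chosen for their high pairwise correlations, after these were seen. Joining features at a correlation of 0.6 or more over all fish instead gave a set of 9, with Ssa#S35473744, Ssa#S35553968 and Ssa#EG798776 added, whose correlations at 4M ran between -0.02 and 0.93 with a median of 0.70. Among the 12 fish at 4M, the correlation of the deviations of the 6 from the group means in log2-ER was 0.63 to 0.93 over the 15 pairs, with a median of 0.86. Over all 31 fish it was 0.39 to 0.90 with a median of 0.66, and over the 351 pairs of the 27 features the median was 0.13. With deposited values the medians were 0.86 at 4M and 0.65 over all fish.

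In S-CCS 4M, fish 7 had the highest log2-ER of its group in 6 of the 6. Ssa#S35500679 was at 2.20 in that fish, against -1.82 in fish 1 and -1.93 in fish 6, and Ssa#TC82460 was at 1.33, against -0.80 and -1.17. In net-pen 4M, fish 12 was the highest in 5 of the 6, with Ssa#GRASP209734939 at 2.25, and fish 2 was the highest in Ssa#S35537615 with 2.19. The 6 features had smolt medians between 4.52 and 10.41 in log2 intensity, so that they differed widely in signal. At 4M none of them differed between systems at an adjusted p under 0.05 in limma, with differences from -1.21 for Ssa#S35537615 to -0.65 for Ssa#S22497299. Ssa#S30276405 had the smallest adjusted p of the 6, 0.069.

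A second pattern was that of Ssa#GRASP209735153 and Omy#S21809075, whose deviations correlated with 0.96 over the 12 fish at 4M and 0.93 over all 31. The latter was the highest of the 351 pairs, and the pair was picked for it. Omy#S21809075 lies outside the rule for naming. The paper warns that a sequence may bind several probes. Whether matched features read the same transcript was not tested. Ssa#GRASP209735153 had log2 intensities of 9.34 to 10.30 in S-CCS 4M. In net-pen 4M it was at 9.99, 10.89, 11.27 and 11.41 in 4 fish, and at 6.04 in fish 2 and 6.61 in fish 12, under the lowest smolt with 7.38. Omy#S21809075 showed the same division, with 5.39 to 6.49 in S-CCS 4M, 6.15 to 7.52 in 4 net-pen 4M fish, and 4.32 in fish 2 and 4.39 in fish 12. The S-CCS median of Ssa#GRASP209735153 was thus below the net-pen median, at 9.73 against 10.44, while its mean difference in log2-ER was 0.54 (SE 0.72, limma adjusted p = 0.69), higher in S-CCS. Fish 12 was highest of net-pen 4M in most of the group of 6 and low in this pair.

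**Figure D5:**
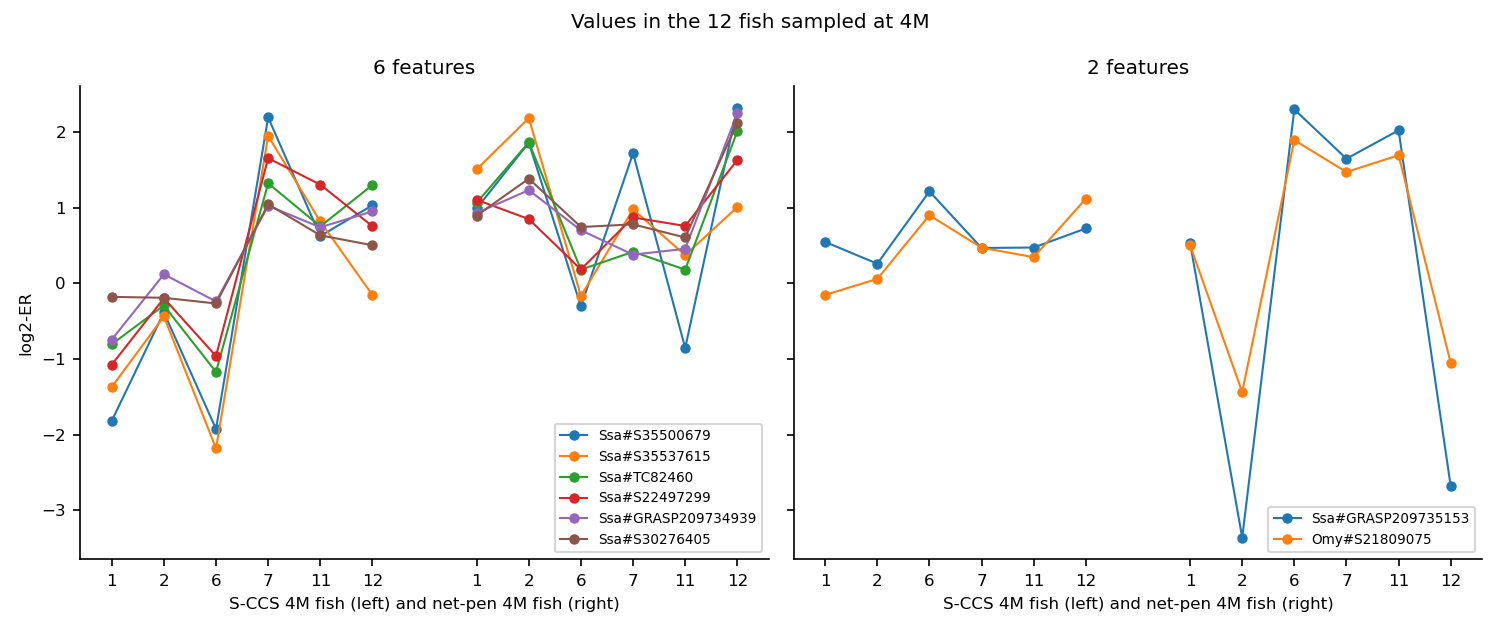
Log2-ER (vertical axis) in the 6 S-CCS 4M fish and the 6 net-pen 4M fish (horizontal axis, fish numbers as labelled) for the group of 6 features (left) and for Ssa#GRASP209735153 with Omy#S21809075 (right), with lines joining the values of a feature within a system. S-CCS 4M fish 7 is highest in all 6 features on the left, and net-pen 4M fish 2 and 12 are lowest for both features on the right.

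Closely matched pairs, also picked for their high correlations, were found outside these patterns, and the same limit holds for them. The deviations of Ssa#GRASP209735559 and Ssa#CL34Contig1 correlated with 0.78 over the 12 fish at 4M and 0.79 over all 31, and S-CCS 4M fish 7 was lowest in both, at 9.56 and 8.46 in log2 intensity, whereas it was highest in the group of 6. Those of Ssa#S18892305 and Ssa#GRASP209738405 correlated with 0.82 and 0.79, and those of Ssa#S35517739 and Ssa#S50369596 with 0.71 and 0.73.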

How the data were processed

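Skin RNA of 31 fish was hybridised to single-colour Agilent arrays (1 fish per array) and read with Feature Extraction 12.0.1.1. The authors deposited scanner intensity files and a table of processed intensity values, which equalled the median signal minus local background times a constant per array. Members were selected on this table. Members, gene lists and tests were chosen with earlier results of these data known; the lists of genes could not be applied, since probes carried no gene names. For the tests, processed signals were scaled to equal mean, divided by the mean over arrays and lowess-corrected (span 0.3), as in the study's methods. Spots flagged as outliers were left out (145 values), and features had to be well above background on 50% of the arrays of a group (14172 of 14841 kept, all 27 members included). One limma 3.58.1 fit (R 4.3.3) covered the 5 groups, with Benjamini-Hochberg adjustment over all features. The precision is limited by the number of arrays. Named features were the 12 with the largest smaller 4M d, the 6 with the highest 4M median, up to 6 per direction that differed between systems at 4M and 3 at 1M, 3 on each side of the threshold and the 3 with the widest spread at 4M. Fish numbers did not pair the samples. Alternatives covered scaling, background correction, filters, blocks, thresholds and leaving out each fish.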

Additional observations from a re-analysis of the deposited data

Results flagged for a closer look

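Over the 27 features and 5 groups, 135 sets of fish were searched for a fish far from the others (gap to its neighbour over the range, Dixon's limit). Dixon's limit flags about 1 in 20 sets, or 6.75, for independent sets of normal, untied values, and 18 were found. Some of these sets held values tied at the floor of 4, and some features moved together, so no excess is read from this. Values are log2 deposited intensities. In smolts, fish 1 was far above the rest in Ssa#GRASP209734281 (7.03, next fish at 4), Ssa#S18846215 (10.57, next 5) and Ssa#S35500679 (8.10, next 6.21). Smolt fish 1 was also the highest smolt in 29.4% and the lowest in 29.0% of all features. Its array had the lowest ratio of signal to background among the smolts (4.44), so its deviations are not confined to these features. Fish 12 was high in Omy#S21809075 (5.67, next 4.91), fish 7 in Ssa#S30276405 (7.33, next 6.73), and fish 3 was low in Ssa#S50369596 (7.29, next 8.03).

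In S-CCS 1M, fish 2 was high in Ssa#S35537615 (8.70, next 5.55), Ssa#S22497299 (6.44, next 4.70) and Ssa#S18846215 (4.64, others at 4). The array of this fish had the highest median deposited intensity of all arrays (112). It was the highest of its group in 25.3% and the lowest in 22.7% of all features. Fish 1 was high in Ssa#GRASP209734281 (6.29, next 4.81), fish 6 in Ssa#S35473744 (5.78, next 5.13), and fish 7 was low in Ssa#S50369596 (7.36, next 8.13). In net-pen 1M, fish 12 was high in Ssa#S35473744 (7.19, next 5.49) and Ssa#S35537615 (7.06, next 4.32), fish 6 in Ssa#S18846215 (7.30, next 4.39) and fish 2 in Ssa#S35685877 (7.45, next 6.51). At 4M only net-pen fish 12 was found, in Ssa#S22497299 (7.28, next 6.27) and Ssa#S30276405 (9.83, next 8.66).

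The features that differed between systems at 4M in the main fit were Ssa#GRASP209738405 (-1.06), Ssa#S50369596 (-1.44), Ssa#S35473744 (-1.63) and Ssa#S35553968 (-1.62), lower in S-CCS each time. No slide held both 4M groups, and 0 of 27 passed with slide as a fixed block. In the 12 fits that left out 1 fish, Ssa#S35473744 passed in 7 and Ssa#GRASP209738405 in 3. In Ssa#S35553968 the change from 1M to 4M also differed between systems (-2.42).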

How the results depend on the processing

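At 4M, 4 of 27 features differed between the systems, against 7.95% of all features. The count was 9 by the criteria of the study's methods, all lower in S-CCS (2.97% of all features lower). It was 12 with normexp background correction (11.8% of all features) and 0 with slide as a fixed block (0.12%). It ranged from 2 to 6 when 1 fish was left out (3.24% to 9.41%). It was 2 without S-CCS 4M fish 1, 2 or 6 or without net-pen 4M fish 7, and 6 without net-pen 4M fish 2. All calls were lower in S-CCS. In the fits that left out 1 of 12 fish, Ssa#S50369596 and Ssa#S35553968 passed in 12, Ssa#S35473744 in 7 and Ssa#GRASP209738405 in 3. With the fish number as a replicate block, 3 passed at 4M (7.48% of all features), where Ssa#GRASP209738405 had a limma adjusted p of 0.052. In that fit 0 passed at 1M (5.18%) and 1 in the interaction (15.1%), as without the block. Same-numbered fish of different groups did not deviate together (median correlation -0.017 over 60 pairs), so the number is no pairing. At 1M the count of 0 became 1 without detrending (12.3% of all features) or with array weights (12.1%). It was 0 to 1 when a fish was left out (2.47% to 9.43%). The interaction count of 1 became 3 without lowess (23.8% of all features), 6 with normexp (18.8%) and 2 without detrending (23.1%). It was 1 to 3 when a fish was left out (11.9% to 19.5%), with 3 without net-pen 4M fish 2.

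The number of features selected depended on the values used. It was 41 on mean-scaled processed signals with lowess (19 of the 27 among them), 46 with 75th percentile scaling (18), 21 with normexp (14), 24 with means in place of medians (17), 41 with a 4M threshold of 0.7, 13 with a threshold of 1 and 15 with a 1M ceiling of 0.2. Leaving out 1 fish gave 21 to 35, and 6 of the 27 were selected in all 31 such turns. The smolts were also split into sets by slide, 4 on slides of S-CCS 4M fish and 3 others. With the smolts of the same set only, 19 of the 27 were selected and the smaller 4M d was above 0 for all 27. The selection used the same smolts, so a d above 0 is largely set in advance and nothing is read from it. A set is wider than a slide, since net-pen 4M fish on slides 8 and 9 shared no slide with a smolt. With a floor of 64, 19 of the 27 were selected. The smaller 4M d was then 0 for Ssa#S35553968, Ssa#S35563223 and Omy#S21809075, 0.05 to 0.17 for Ssa#S22497299, Ssa#S18846215, Ssa#KSS1224 and Ssa#S35537615, and 0.44 for Ssa#S18848184.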
